A study of Arabidopsis thaliana with 3 samples.

Results

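The comparison described here sets 1 array of Arabidopsis thaliana seedlings overexpressing DRB3 against 1 array of wild-type seedlings. Its members are all 13356 genes read by a probe set that the array's gene table assigns to exactly 1 gene, the same 13356 that could be named in the series as a whole. The series holds 3 arrays, of a transgenic plant overexpressing DRB3, a transgenic plant overexpressing DRB2 and the wild type, each from whole seedlings at 2 weeks of age. All 3 groups were grown at 22 °C in days of 16 h light and 8 h dark on half-strength MS medium, and 10 ug of total RNA from each was labelled for ATH1 arrays, on which a set of short probes reads each transcript. The labels used here do not name the promoter of either transgene, how many independent lines it stands for, or how many seedlings were pooled. The dye that the labels name, Cy3, is not the biotin of the labelling protocol, and the design text of the series describes a kinase gene and salt, so the groups rest on the genotype label of each sample alone.

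DRB proteins carry double-stranded RNA-binding motifs. Plants use such proteins as partners of Dicer-like enzymes, which cut double-stranded RNA into the small RNAs that guide Argonaute proteins to matching transcripts or chromatin, and several members of the family are known for roles in microRNA processing and in defence against viruses. DRB2 and DRB3 are separate members of this family. Neither gene is among those named by the gene table, so the level of the transgene's product was not analysed here and the genotype labels were not checked by it.

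Values are MAS5 intensities, a linear scale in arbitrary units. The median probe set had 187 units in the DRB3 overexpressor, 196 in the DRB2 overexpressor and 187 in wild type, and the trimmed mean was 500 for all 3. Intensities under 109 units were set to that floor before a log2 ratio was taken, and 7200 genes lay above it in the DRB3 overexpressor, 7405 in the DRB2 overexpressor and 7216 in wild type. Within control transcripts read at both ends, the 3' probe set was brighter than the 5' one by 1.498-fold to 17.7-fold in the DRB3 overexpressor, 2.11-fold to 24.7-fold in the DRB2 overexpressor and 2.42-fold to 29.2-fold in wild type. The DRB3 overexpressor had the lower ratio in 6 of 6 such pairs against wild type. Actin, GAPDH and ubiquitin were each read by a pair and a further pair of probe sets, so the pairs are not independent. Organ markers were thinly covered. Of 10 leaf markers only RCA, for Rubisco activase, was measured, at 21690, 29895 and 33718 units in the DRB3 overexpressor, the DRB2 overexpressor and wild type, and of 11 root markers only EXPA7 and EXPA18, both described below. The meristem marker CLV3 lay under the floor on all 3 arrays, and no listed marker of flowers, seeds or xylem was measured.

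The 2 arrays compared differed at least 2-fold for 397 of the 13356 genes, or 2.97%. Of these, 192 (1.44%) were higher in the DRB3 overexpressor and 205 (1.53%) were lower. A gene is said below to have risen or fallen if it is among these, which with 1 array a group describes these arrays and carries no error, no test and no p-value. Counts of rises and falls in gene lists below are to be read against the shares of 1.44% and 1.53%, and none was tested. Both values lay above the floor for 159 of the risen and 179 of the fallen genes. For the other 33 and 26 the dimmer value lay under it, and the fold is a bound, written "at least". Of the measured genes, 5817 lay under the floor on both arrays and have no fold. They count as 0 in the medians of gene lists given below. All lists were chosen with earlier results of these data known, so their counts and medians are descriptions only. Changes of at least 4-fold were more often rises, with 25 genes higher and 10 lower. The middle of the distribution was symmetric, with quartiles of the log2 ratio at -0.28 and 0.28 over the 7539 genes with at least 1 value above the floor. Of these 7539 genes 49.9% had a log2 ratio above 0. Counts of list members above or below 0 are to be read against that near-even split. In whole seedlings, fewer cells of a type and less RNA per cell cannot be told apart for any of these genes.

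**Figure D1:**
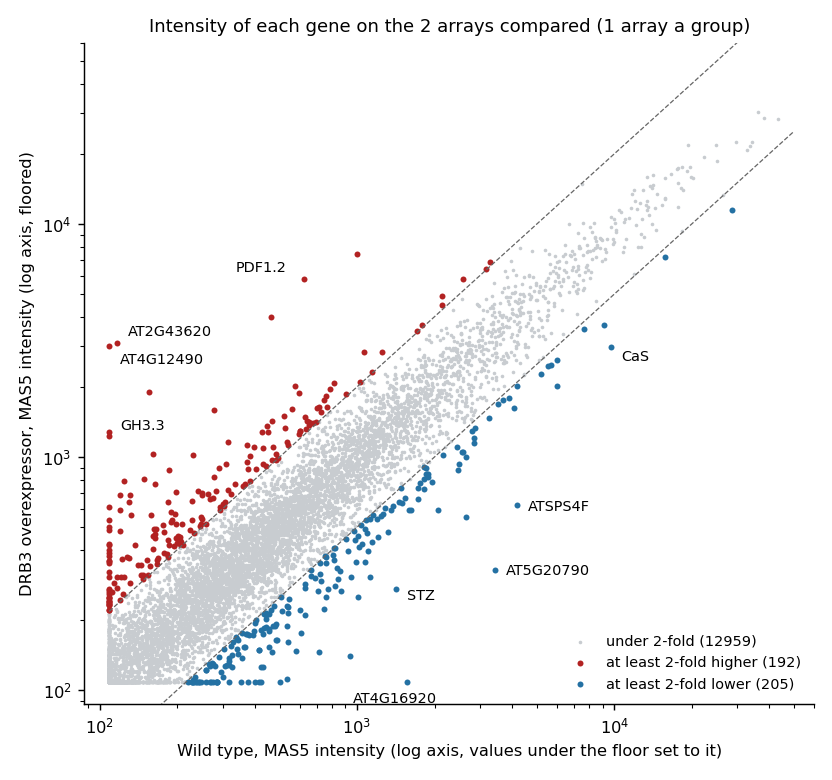
Intensity of each of the 13356 genes in the DRB3 overexpressor (vertical) against wild type (horizontal), on log axes with values under the floor of 109 units set to it; the dashed lines mark a 2-fold difference. The 192 red genes lie above the upper line and the 205 blue genes below the lower one, with AT2G43620 and AT4G12490 farthest up and AT4G16920 and AT5G20790 farthest down.

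The DRB2 overexpressor array shares its wild-type reference with this comparison, and its values are given beside those of DRB3 as readings of a further array. Over the 192 risen genes the median intensity was 613 units in the DRB3 overexpressor, 368 in the DRB2 overexpressor and 205 in wild type. Over the 205 fallen genes it was 247, 433 and 662 units. These genes were chosen by their difference between the DRB3 overexpressor and wild type, so a reading of a further array that lies between the others, here and below, can come from that choice and is given as a value only. By the same rule 71 genes (0.532%) were higher and 55 (0.412%) lower in the DRB2 overexpressor against wild type.

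The genes nearest the threshold show how fine the division is. ATG101, the autophagy gene AT5G66930, read 420 units in the DRB3 overexpressor, 293 in the DRB2 overexpressor and 210 in wild type, a 2.00-fold rise just inside it together with AT1G08940 and AT4G21580. The beta-glucosidase gene BGLU16 lay just outside at 1561, 978 and 783 units, 1.99-fold higher, followed by AT4G17280 and AT5G18470. Among falls, AT3G13000, AT1G76600 and AT3G25410 lay just inside and AT5G04810, AT5G22620 and AT3G10840 just outside. Of 146 genes with several probe sets, 2 were at least 2-fold lower, AT3G44510 and GAT1_2.1, and for both the other probe set lay under the floor on both arrays. For another 2, the dimmer probe set passed where the brighter one, which stands for the gene, did not. AT1G23440 had log2 ratios of 1.39 on its dimmer and 0.45 on its brighter probe set, and AT2G30600 had 1.24 and 0.32.

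Both rises and falls were more frequent among genes with short spans, and the balance between them shifted with span. In the quartile of genes with the shortest RefSeq spans, of median 1301 bp, 98 genes rose and 64 fell, together 8.61% of its genes with at least 1 value above the floor. In the quartile with the longest spans, of median 4120 bp, 18 rose and 43 fell, together 3.25%. The median span was 1683 bp for risen genes, 2218 bp for fallen genes and 2323 bp for all genes with a value above the floor, and the median log2 ratio ran from 0.07 in the shortest quartile to -0.11 in the longest. The arrays also differed in the 3' to 5' control ratios given above, and the part of these in the relation to span was not tested. Brightness followed no such order. The share of 2-fold genes was 4.18% among genes under 2 times the floor, 6.90% between 2 and 4 times, 4.95% between 4 and 8 times, 5.74% between 8 and 16 times and 3.84% over 16 times.

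**Figure D2:**
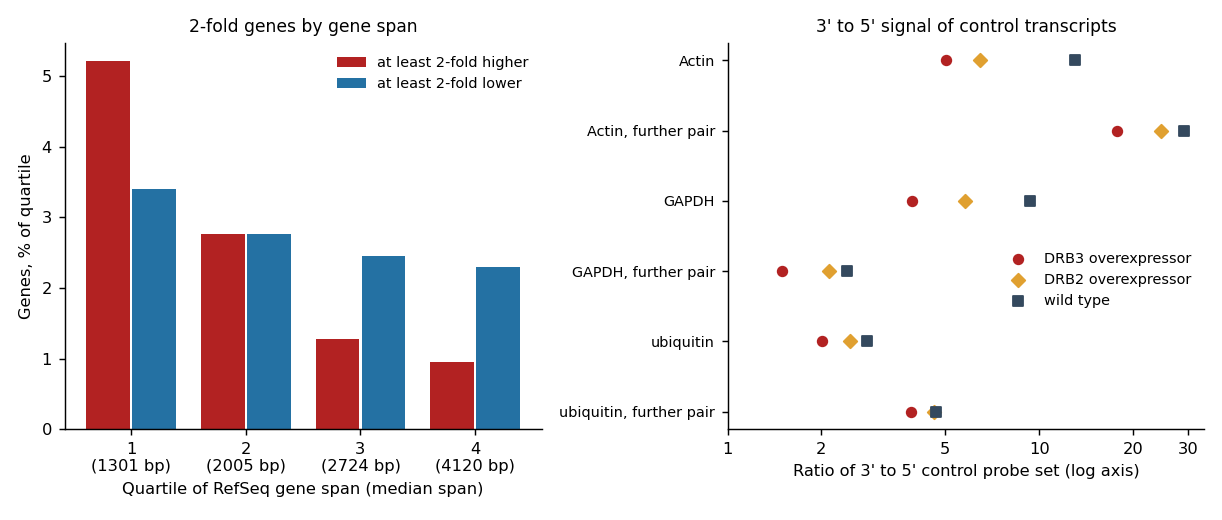
Left, the percentage of genes in each quartile of RefSeq gene span that were at least 2-fold higher (red) or lower (blue) in the DRB3 overexpressor against wild type, among genes with at least 1 of the values above the floor; right, the ratio of 3' to 5' signal for 6 pairs of control probe sets on each array, on a log axis. Rises outnumber falls 98 to 64 in the shortest quartile and falls outnumber rises 43 to 18 in the longest, and the DRB3 overexpressor has the lowest control ratio in every pair. The pairs cover only actin, GAPDH and ubiquitin.

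The defensin genes PDF1.2, PDF1.2b and PDF1.4 were among the rises. Plant defensins are small cysteine-rich antifungal peptides, and PDF1.2 is the standard marker of combined jasmonate and ethylene signalling. PDF1.2 read 5806 units in the DRB3 overexpressor, 3058 in the DRB2 overexpressor and 623 in wild type, a 9.31-fold rise. PDF1.2b read 7422, 5824 and 999 units, 7.43-fold higher, and its probe set belongs to the class that may cross-hybridise with transcripts of similar sequence. PDF1.4 read 359, 281 and 32.3 units and so rose at least 3.31-fold. These 3 genes were brightest in the DRB3 overexpressor and dimmest in wild type. A further measured defensin gene, LCR67, lay under the floor on every array, at 2.52, 5.38 and 0.94 units. THI2.1, a thionin gene induced by jasmonate, read 159, 160 and 34.6 units, a log2 difference of at least 0.55. Of 23 genes listed for jasmonate and ethylene defence, 4 were measured, 2 rose and 0 fell, and their median log2 ratio was 1.72, against 0 over all 13356 genes.

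Chitinases and beta-1,3-glucanases break down the polymers of fungal cell walls. Of 17 listed genes 9 were measured, of which 4 rose and 0 fell, with a median log2 ratio of 0.72. AT2G43620 read 3087 units in the DRB3 overexpressor, 748 in the DRB2 overexpressor and 116 in wild type, a 26.6-fold rise and the largest among genes above the floor on both arrays compared. AT4G16260 read 3996, 2415 and 464 units, 8.61-fold higher. AT2G43590 read 822, 487 and 277 units, 2.97-fold higher, and AT1G02360 read 356, 201 and 97.9 units, at least 3.28-fold higher. The 4 genes ran in the same order across the arrays. OSM34, for an osmotin-type protein of the thaumatin family, rose 2.30-fold and read 4900 units in the DRB3 overexpressor, against 2236 in the DRB2 overexpressor and 2132 in wild type, so that only the DRB3 overexpressor stood apart. Salicylic acid and immune signalling genes gave no call. Of 20 listed, 4 were measured and 0 passed 2-fold, with SAG101, a partner of EDS1 in immune signalling, the farthest at a log2 ratio of at least 0.90.

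Class III peroxidases are secreted enzymes that use hydrogen peroxide to cross-link or loosen the cell wall. Of the 6 measured genes that the RefSeq table names as numbered peroxidases, which need not be the whole family, 3 rose and 0 fell. AT5G64120, peroxidase 71, read 1028 units in the DRB3 overexpressor, 471 in the DRB2 overexpressor and 162 in wild type, 6.36-fold higher. AT5G66390, peroxidase 72, read 807, 341 and 149 units, 5.41-fold higher, and Prx37 read 1022, 538 and 231 units, 4.43-fold higher. In each case the DRB2 overexpressor lay between the others. Of the others so named, AT2G41480 read 137, 139 and 131 units and 2 lay under the floor on both arrays compared, and the median log2 ratio of the 6 was 1.11.

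**Figure D3:**
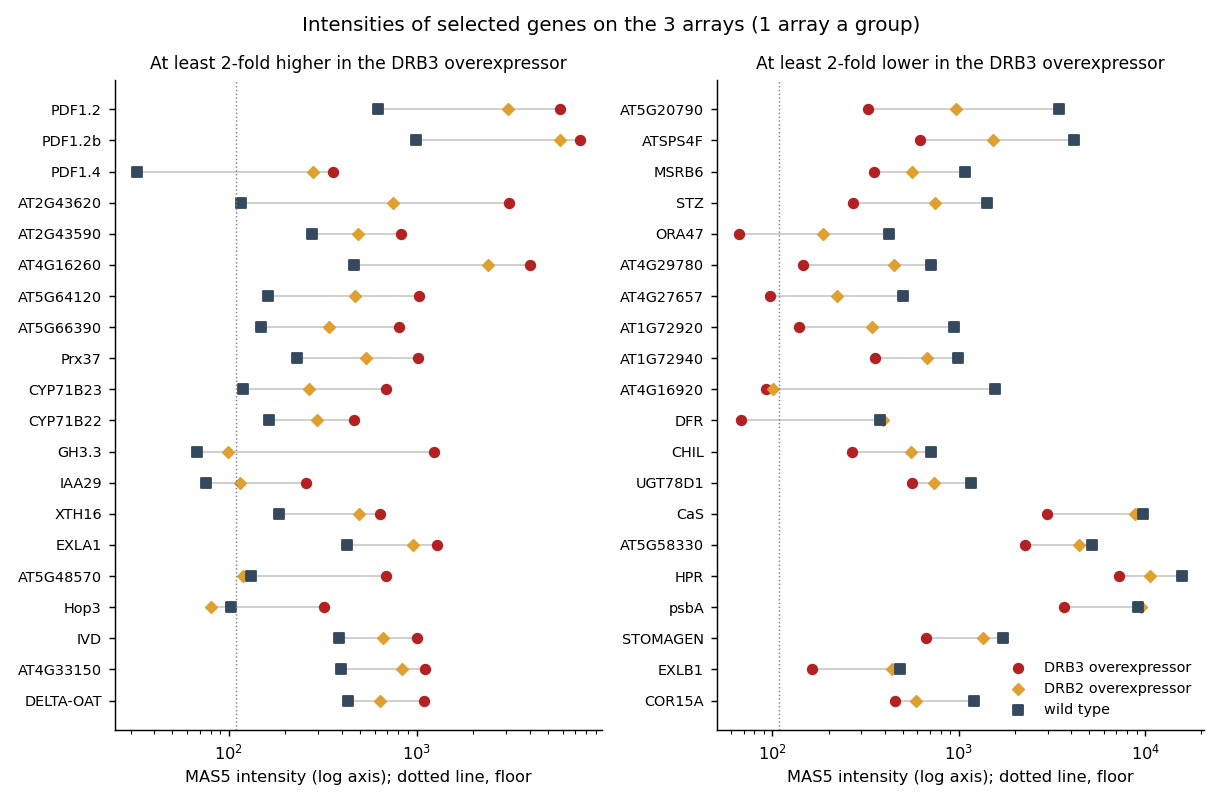
MAS5 intensity, on a log axis, of 20 genes that rose (left) and 20 that fell (right) in the DRB3 overexpressor against wild type, with 1 red circle, 1 yellow diamond and 1 dark square a gene for the DRB3 overexpressor, the DRB2 overexpressor and wild type. For PDF1.2 the points lie at 5806, 3058 and 623 units, while for GH3.3, AT5G48570, DFR and psbA the diamond lies close to the wild-type square.

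Enzymes that modify small molecules rose in a few members of large families. Cytochromes P450 are oxygenases of plant secondary metabolism, and of 23 measured by symbol, which need not be the whole family, 2 rose and 0 fell. Both belong to the CYP71B subfamily, as do CYP71B26, CYP71B35 and CYP71B5, the list's next largest ratios. The list was drawn largely from that subfamily, so the shared membership is no result. CYP71B23 read 684 units in the DRB3 overexpressor, 266 in the DRB2 overexpressor and 120 in wild type, 5.71-fold higher, and CYP71B22 read 465, 294 and 163 units, 2.85-fold higher. UDP-glycosyltransferases attach sugars to hormones and secondary metabolites, and 3 of 51 rose and 1 fell. Over all genes 1.44% rose and 1.53% fell. UGT72E1, which glycosylates lignin precursors, rose 2.28-fold, UGT85A2 rose 2.18-fold, and UGT76B1, which glucosylates isoleucic acid and affects salicylic acid responses, rose 2.14-fold. Among 13 glutathione transferases only GSTU25 rose, with 249 units in the DRB3 overexpressor against 87.6 in the DRB2 overexpressor and 90.3 in wild type, at least 2.29-fold higher. AT2G21640, on the list of oxidative stress genes, read 448 units in the DRB3 overexpressor, 220 in the DRB2 overexpressor and 165 in wild type, 2.73-fold higher. The beta-glucosidases, with 22 measured, gave 0 calls.

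A few genes of the cell wall passed 2-fold. XTH16, for an enzyme that cuts and rejoins xyloglucan, read 640 units in the DRB3 overexpressor, 494 in the DRB2 overexpressor and 184 in wild type, 3.48-fold higher, and XTH18 read 571, 371 and 196 units, 2.91-fold higher. These were the 2 calls among 10 measured members, whose median log2 ratio was 0.40. Expansins slip apart wall polymers, and of 19 measured 2 rose and 1 fell. The expansin-like gene EXLA1 read 1277, 958 and 428 units, 2.99-fold higher, and EXPA18, a root hair gene, read 439, 278 and 184 units, 2.39-fold higher. In contrast, EXLB1 read 164 units in the DRB3 overexpressor, 440 in the DRB2 overexpressor and 482 in wild type, 2.94-fold lower. EXPA7, the other root hair marker, read 158, 95.1 and 52.1 units, a difference below 2-fold once floored. The pectin methylesterase gene ATPMEPCRB rose 3.59-fold, EXO, a gene of brassinosteroid-promoted growth, rose 2.64-fold at 2821, 2754 and 1067 units, and ARL, which promotes cell expansion in cotyledons and leaves, rose 3.04-fold at 1129, 595 and 372 units.

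The product of GH3.3 joins auxin to amino acids, and auxin induces the gene. It read 1235 units in the DRB3 overexpressor but 99.1 in the DRB2 overexpressor and 68.1 in wild type, both under the floor, and so rose at least 11.4-fold. IAA29, for an auxin-induced repressor, read 258 units in the DRB3 overexpressor against 115 in the DRB2 overexpressor and 76.1 in wild type, at least 2.38-fold higher. The related GH3 gene WES1 read 540, 555 and 272 units, 1.98-fold higher and outside the threshold. Of 27 listed auxin response genes 8 were measured, 2 rose and 0 fell, with a median log2 ratio of 0.18.

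A pair of co-chaperone genes rose in the DRB3 overexpressor and did not read above wild type in the DRB2 overexpressor. AT5G48570, which encodes the heat-induced peptidyl-prolyl isomerase ROF2, read 687 units in the DRB3 overexpressor, 119 in the DRB2 overexpressor and 131 in wild type, 5.23-fold higher. Hop3, for a co-chaperone that links HSP70 and HSP90, read 322 units in the DRB3 overexpressor, against 80.5 and 103 units in the DRB2 overexpressor and wild type, at least 2.97-fold higher. Its relatives Hop2 and Hop1 read 1335 and 618 units in the DRB3 overexpressor, against 702 and 549 in wild type, with log2 ratios of 0.93 and 0.17. Only 2 of 23 listed heat shock genes were measured, of which AT5G48570 is 1 and the other lay under the floor.

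Genes for the breakdown of amino acids and for autophagy lay mostly above wild type. The amino acid list was added after values of these data were seen. Of its 13 measured members 4 rose, 0 fell and 11 had a log2 ratio above 0, with a median of 0.68. AT4G33150, for the lysine-degrading enzyme LKR/SDH, read 1107 units in the DRB3 overexpressor, 839 in the DRB2 overexpressor and 397 in wild type, 2.79-fold higher. IVD, for the isovaleryl-CoA dehydrogenase of leucine breakdown, read 1009, 665 and 384 units, 2.63-fold higher, and DELTA-OAT, for ornithine aminotransferase, read 1093, 639 and 430 units, 2.54-fold higher. All 3 were lowest in wild type. ALDH7B4, an aldehyde dehydrogenase gene of lysine breakdown and stress, rose 2.07-fold. IVD was also the single call among 4 measured sugar starvation genes. Of the others, ETFQO and MCCA had log2 ratios of 0.80 and 0.76, and AKINBETA1 had 0.70. IVD, ETFQO and MCCA are on the amino acid list as well, so these lists largely share their readings.

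ATG8 proteins coat the membrane of the autophagosome, the vesicle that carries cell contents to the vacuole. ATG8H read 667 units in the DRB3 overexpressor, 408 in the DRB2 overexpressor and 275 in wild type, 2.42-fold higher. APG8A read 1375 units in the DRB3 overexpressor, against 692 in the DRB2 overexpressor and 652 in wild type, 2.11-fold higher. ATG8B and ATG8E came near the threshold with log2 ratios of 0.94 and 0.92. Of 15 listed genes 11 were measured and 10 had a log2 ratio above 0, with a median of 0.57. Of 3 measured iron deficiency genes 2 rose. The transcription factor gene BHLH101 read 239 units in the DRB3 overexpressor, 277 in the DRB2 overexpressor and 101 in wild type, at least 2.20-fold higher, and AT3G13610, whose enzyme F6'H1 makes the iron-mobilising coumarin scopoletin, read 766, 543 and 365 units, a log2 ratio of 1.07.

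Several large rises fell on loci to which the tables used here give no function. AT4G12490 read 2998 units in the DRB3 overexpressor, 717 in the DRB2 overexpressor and 89.6 in wild type, at least 27.6-fold higher. AT1G65500 read 1896, 749 and 155 units, 12.3-fold higher, and AT5G39520 read 1282, 1495 and 64.7 units, at least 11.8-fold higher. The DRB2 overexpressor was thus the brightest array for AT5G39520 but not for the other 2. A further 2 loci read near wild type in the DRB2 overexpressor. AT1G43910 read 880 units in the DRB3 overexpressor, 202 in the DRB2 overexpressor and 186 in wild type, and AT5G57760 read 592, 103 and 120 units. The rises of AT4G33720, AT4G39675, AT3G19850, AT5G57655, AT1G72060, AT2G18690, AT5G12050, AT3G46280 and AT4G19430, the last 2 of them bounds, ranged from 3.70-fold for AT5G12050 to 6.33-fold for AT4G33720.

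**Figure D4:**
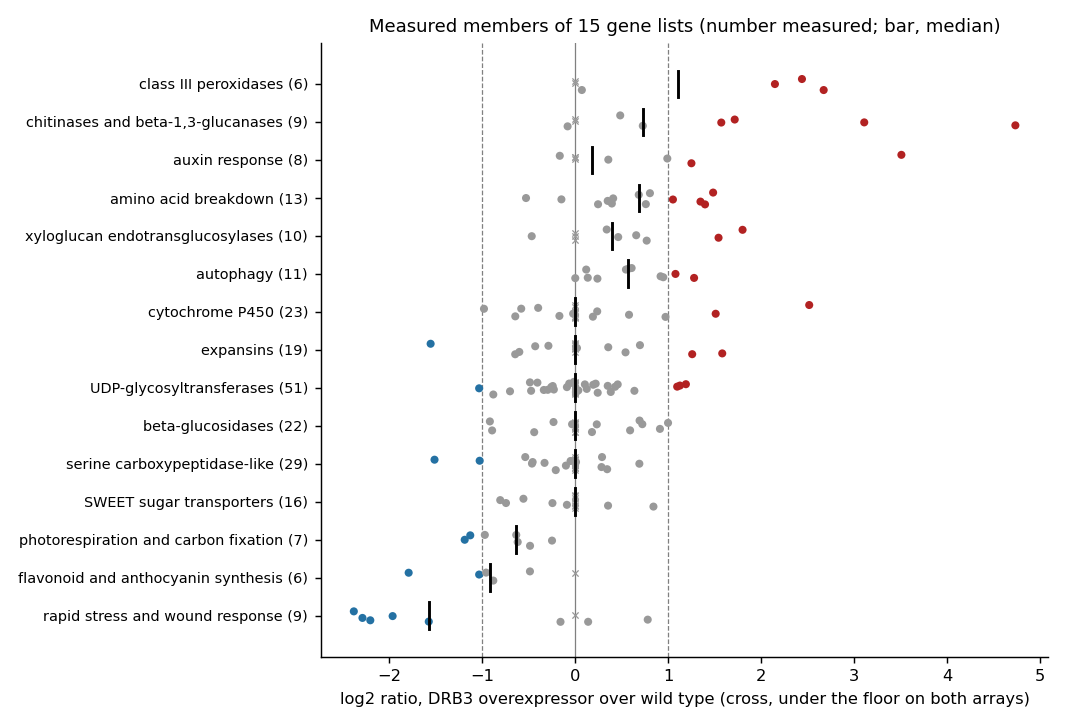
Log2 ratio of the DRB3 overexpressor over wild type for the measured members of 15 gene lists, 1 point a gene, with the number measured in brackets and a black bar at the median; crosses at 0 are genes under the floor on both arrays, and red and blue points passed 2-fold. Peroxidase, chitinase and amino acid breakdown genes have medians of 1.11, 0.72 and 0.68, while rapid stress genes have a median of -1.58 and large families such as the UDP-glycosyltransferases have one of 0. The lists were chosen with earlier results of these data known.

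Genes that respond within minutes to touch, wounding or cold read lower in most measured members. Of 39 listed, 9 were measured, 5 fell and 0 rose, and the median log2 ratio was -1.58. STZ, a zinc-finger repressor of stress responses, read 271 units in the DRB3 overexpressor, 743 in the DRB2 overexpressor and 1417 in wild type, 5.22-fold lower. ORA47, an AP2-type activator of jasmonate synthesis genes, read 66.1, 186 and 425 units, at least 3.91-fold lower. AT4G29780 read 146, 447 and 713 units, 4.89-fold lower, and AT4G27657 read 97.3, 222 and 501 units, at least 4.61-fold lower. In these 4 genes the DRB3 overexpressor was dimmest and wild type brightest, whereas AT3G10930 read 152, 157 and 454 units, 2.98-fold lower, with both overexpressors alike. Against the direction of the list, the calmodulin-like gene CML38 had a log2 ratio of 0.78. The 7 measured WRKY factors gave 0 calls.

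Sucrose and starch metabolism held 1 of the largest falls. ATSPS4F encodes a sucrose-phosphate synthase, a key enzyme of sucrose synthesis. It read 619 units in the DRB3 overexpressor, 1532 in the DRB2 overexpressor and 4173 in wild type, 6.74-fold lower. AMY1, a secreted alpha-amylase gene, went the other way, at 220, 307 and 54.2 units and at least 2.02-fold higher. The other 4 of 6 measured genes on the list did not pass, and the sugar exporter gene SWEET11 read 2308, 3577 and 4044 units, with a log2 ratio of -0.81. AT5G20790, the single measured gene of 22 listed for phosphate starvation, read 327 units in the DRB3 overexpressor, 967 in the DRB2 overexpressor and 3452 in wild type. This 10.5-fold fall was the largest among genes above the floor on both arrays compared.

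Flavonoid and anthocyanin genes lay below wild type in every measured member above the floor, 5 of 6. DFR, for the dihydroflavonol reductase that commits flavonoids to anthocyanin, read 67.8 units in the DRB3 overexpressor against 392 in the DRB2 overexpressor and 377 in wild type, at least 3.47-fold lower. UGT78D1, a flavonol rhamnosyltransferase gene, read 564, 740 and 1155 units, 2.05-fold lower. Of the members that did not pass, AT4G14090 read 42.2, 139 and 212 units, UF3GT read 6.82, 178 and 153 units, and UGT78D2 read 477, 614 and 880 units. AT4G14090 and UF3GT thus joined DFR below the floor in the DRB3 overexpressor alone. CHIL, a non-catalytic chalcone isomerase-like protein that promotes flavonoid synthesis and was not on the list, read 266, 555 and 705 units, 2.65-fold lower. The median log2 ratio of the 6 listed members was -0.92.

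HPR and AT5G58330, both on the list drawn up for photorespiration and carbon fixation, fell. That list was added after values of these data were seen. All 7 of its measured members of 23 had log2 ratios below 0, with a median of -0.64, and the other 5 did not pass. HPR, the peroxisomal hydroxypyruvate reductase of photorespiration, read 7215 units in the DRB3 overexpressor, 10654 in the DRB2 overexpressor and 15803 in wild type, 2.19-fold lower. AT5G58330, an NADP-dependent malate dehydrogenase, read 2266, 4425 and 5173 units, 2.28-fold lower. PRK, the phosphoribulokinase of the Calvin cycle, read 9361, 13844 and 18393 units and RCA had a log2 ratio of -0.64, so neither passed. The 7 measured nuclear genes of the photosystems and light harvesting gave 0 calls and a median of -0.02. The difference between these lists was not tested.

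CaS and some further genes, these chosen after their values were seen, also fell. CaS, a thylakoid calcium-sensing protein, read 2979 units in the DRB3 overexpressor but 8805 in the DRB2 overexpressor and 9691 in wild type, 3.25-fold lower. The plastid-encoded psbA, for the D1 protein of photosystem II, read 3675 units in the DRB3 overexpressor, against 9509 and 9114 units in the DRB2 overexpressor and wild type, 2.48-fold lower. It was the single call among 69 plastid genes, or 1.45%, against 2.97% over all genes. The median log2 ratio of the plastid genes was -0.23. LrgB, for a transporter of glycolate and glycerate in the chloroplast envelope that serves photorespiration, read 2447, 4356 and 5529 units and fell 2.26-fold. MSRB6, for a methionine sulfoxide reductase, read 353, 559 and 1073 units and fell 3.04-fold. STOMAGEN encodes a peptide made in the leaf mesophyll that raises stomatal density, and it read 663, 1352 and 1731 units, 2.61-fold lower.

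Some transporter genes and the cold-response gene COR15A gave further falls. GTR1, a glucosinolate importer of the NPF family, read 424 units in the DRB3 overexpressor, 735 in the DRB2 overexpressor and 1043 in wild type, 2.46-fold lower, and AT1G68570, NPF3.1, read 333, 475 and 839 units, 2.52-fold lower. These were the 2 calls among 11 NPF genes. AT5G52050, the efflux carrier gene DTX50, read 67.9, 175 and 318 units, at least 2.93-fold lower. COR15A, whose product protects chloroplasts from freezing, read 455, 588 and 1211 units, 2.66-fold lower, while the dehydrin gene COR47 of the same list read 6383, 4464 and 3176 units, 2.01-fold higher. The list of 4 measured cold and abscisic acid genes thus held 1 call in each direction. Of its other members COR15B read 957, 444 and 616 units, a log2 ratio of 0.64, opposite in direction to COR15A. LTI30 had a log2 ratio of 0.12. Among 29 serine carboxypeptidase-like genes scpl20 and scpl46 fell 2.86-fold and 2.04-fold, and among 9 plant U-box ligase genes PUB26 fell, with a log2 ratio of -1.07. Over all genes 1.53% fell.

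Of the loci without a given function, AT4G16920 fell most. It read 92.2 units in the DRB3 overexpressor, 101 in the DRB2 overexpressor and 1558 in wild type, at least 14.3-fold lower, and so lay under the floor in both overexpressors. Of 8 genes measured in its stretch of 16 it was the single call. However, AT4G16900, AT4G16910, AT4G16930 and AT4G16970 lay under the floor on both arrays compared, so they could not be called. AT4G16880 lay close to the floor, at 88.2 units in the DRB3 overexpressor and 114 in wild type. AT4G16980 read 7914, 10021 and 7374 units. AT1G19960 read 553, 1401 and 2649 units, 4.79-fold lower, and AT3G63340 read 126 units in the DRB3 overexpressor, 626 in the DRB2 overexpressor and 432 in wild type, 3.44-fold lower. The falls of AT1G08310, AT1G60590, AT5G42760, AT3G03790, AT1G04770, AT5G52540, AT2G39650, AT3G56160, AT1G73120, AT3G03770, AT3G22150, AT4G37560, AT1G64360 and AT4G04750, the last 2 of them bounds, ranged from 3.09-fold for AT4G37560 to 4.81-fold for AT1G08310.

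Some of these genes lie beside one another. Of 192 risen genes 16, or 8.33%, had another risen gene within 5 genes along the chromosome, against 6.86% of all 12224 measured protein-coding genes on chromosomes 1 to 5. Of 204 fallen genes so placed 23, or 11.3%, had another fallen gene within 5 genes, against 7.35% of all, and neither share was tested. Among 368 pairs of next genes with at least 1 past 2-fold, both passed in 10, of which 2 rose together, 3 fell together and 5 went opposite ways. Chitinase genes AT2G43590 and AT2G43620 stand in a run of 6 genes. Of the others, CHI and AT2G43610 had log2 ratios of -0.08 and 0.48, and AT2G43580 and AT2G43600 lay under the floor on both arrays compared. CYP71B22 and CYP71B23 are next to each other, and of their neighbours CYP71B26 read 1269, 909 and 648 units with a log2 ratio of 0.97 and CYP71B35 read 96.0, 282 and 215 units with one of -0.98, a bound. AT1G72890, AT1G72920 and AT1G72940 fell 2.53-fold, 6.71-fold and 2.79-fold within a run where AT1G72900, at 1207, 680 and 1510 units, did not pass. AT5G64100, which read 1603, 1241 and 560 units and rose 2.86-fold, lies near the peroxidase gene AT5G64120, with AT5G64110 between them at a log2 ratio of -0.30. AT4G12500, close to AT4G12490, read 611 units in the DRB3 overexpressor, 146 in the DRB2 overexpressor and 60.5 in wild type, at least 5.63-fold higher.

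**Figure D5:**
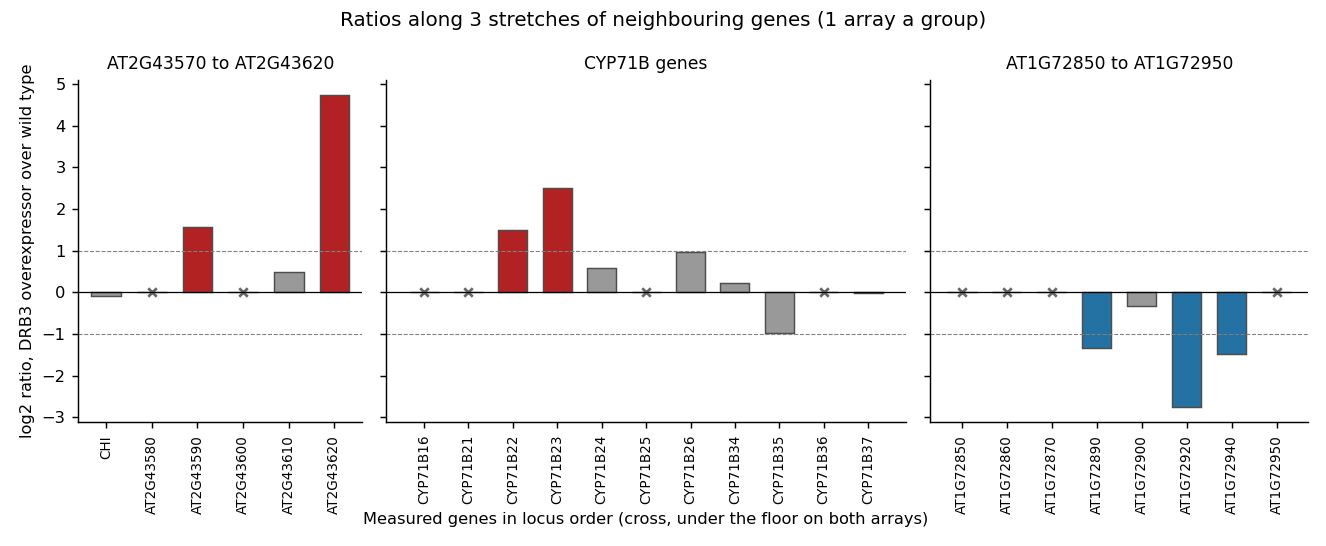
Log2 ratio of the DRB3 overexpressor over wild type for the measured genes of 3 stretches in chromosomal order, with dashed lines at 2-fold and crosses for genes under the floor on both arrays. AT2G43620 and AT2G43590 stand up at 4.73 and 1.57 in the first, CYP71B23 and CYP71B22 at 2.51 and 1.51 in the second, and AT1G72920 down at -2.75 in the last.

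Neighbours also parted. AT5G44410, next to PDF1.2, read 128 units in the DRB3 overexpressor, 185 in the DRB2 overexpressor and 313 in wild type, a log2 ratio of -1.29. AT1G65490, next to AT1G65500, read 3550, 5475 and 7644 units, a log2 ratio of -1.11. By chromosome the share of genes past 2-fold was 3.22%, 2.90%, 2.57%, 3.82% and 2.65% on chromosomes 1 to 5, against 2.97% over all genes.

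The small RNA pathway itself was thinly covered. Of 32 genes of its machinery 2 were measured. SE, whose zinc-finger protein acts in microRNA processing, read 263 units in the DRB3 overexpressor, 219 in the DRB2 overexpressor and 241 in wild type, and AGO7, the Argonaute of trans-acting small RNA formation, read 123, 117 and 106 units. Of 44 listed targets of microRNAs and trans-acting small RNAs 5 were measured, with 0 calls and a median log2 ratio of 0. APS4, an ATP sulfurylase gene, read 1922 units in the DRB3 overexpressor, 1923 in the DRB2 overexpressor and 1037 in wild type, 1.85-fold higher. The flowering repressor gene SNZ read 56.1, 72.0 and 195 units, at least 1.79-fold lower, so for both genes the 2 overexpressors were alike and wild type stood apart, within the threshold. Of 14 listed reference genes 5 were measured and 0 passed, with log2 ratios between -0.77 for AT4G33380 and 0.26 for PEX4.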

How the data were processed

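Expression was measured on 3 ATH1 arrays, 1 a group. The authors deposited linear MAS5 intensity values, per the submitters' processing notes, with version and settings "not given in the sources used here". Values were used as deposited. The 64 control probe sets were left out, as were 503 probe sets with several genes and 8730 with none in the gene table. The remaining 13513 probe sets stood for 13356 genes, each read by its probe set of highest mean, and 13286 were matched to RefSeq, whose positions gave chromosomes, gene order and gene spans and are not printed. These spans replaced the planned protein lengths, and planned promoter motifs were not run.

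The floor was the mean over the 3 arrays of percentile 40 of all probe sets other than controls, named or not. The log2 ratios computed here from the deposited intensities ran DRB3 overexpressor over wild type. With 1 array a group there is no test across genes; precision is limited by the number of arrays.

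The members and lists were chosen with earlier results of these data known. There were 34 lists by locus, from general knowledge, and 17 by symbol. Genes named were the 20 largest rises and the 20 largest falls above the floor, the 6 largest bounds each way, up to 5 members of each list with the largest ratios, and 3 on either side of each threshold. Other genes, namely OSM34, PDF1.4, EXO, ARL, CHIL, psbA, LrgB, MSRB6, STOMAGEN, DTX50 and those described as neighbours of another gene, were chosen after their values were seen.

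Scripts were first tested on simulated data holding 200 genes of known change. Alternatives tried were quantile and loess normalization (span 0.3), floors at percentile 60 and 20, no floor but a pseudocount of 16, averaging the probe sets of a gene, using unique-class probe sets alone, and thresholds of 3-fold and 1.5-fold. The tools were matplotlib 3.10.9, numpy 2.4.6, pandas 2.3.3, statsmodels 0.14.6 and Python 3.11.15.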

Additional observations from a re-analysis of the deposited data

Results flagged for a closer look

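Of 13356 genes, 2 passed 2-fold in opposite directions in the 2 overexpressors. AT5G48490 read 931 units in the DRB3 overexpressor, 5004 in the DRB2 overexpressor and 2496 in wild type, a log2 ratio over wild type of -1.42 for DRB3 and 1.00 for DRB2. AT5G12110 read 1258, 295 and 594 units, a log2 ratio of 1.08 for DRB3 and -1.01 for DRB2. With 1 array a group the difference between the overexpressors was not tested for either gene.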

How the results depend on the processing

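The counts of genes past 2-fold depended on how dim values were treated. With the floor at percentile 20 there were 369 genes higher and 400 lower in the DRB3 overexpressor against wild type, and with the floor at percentile 60 there were 98 and 107. A pseudocount of 16 without a floor gave 508 and 512, which held 177 of the 192 and 176 of the 205 genes. A threshold of 1.5-fold gave 710 and 747 genes and one of 3-fold gave 48 and 30. Quantile normalization gave 189 and 203 genes, loess 194 and 210, averaged probe sets 192 and 203, and unique probe sets 189 and 205. Of the 95 named genes past 2-fold, 59 kept it with the floor at percentile 60, 88 with the pseudocount and at least 90 under the 2 normalizations, and 0 changed direction under any of these. Of 25 list medians 1 changed sign under quantile and 1 under loess normalization. The largest shift of a list median in log2 was 0.97 with the floor at percentile 20, 1.09 at percentile 60 and 0.97 with the pseudocount. Under quantile and loess normalization it was 0.19 and 0.16. No paired analysis was possible because each group has 1 array, and no array could be left out for the same reason. Probe sets near the floor limit what can be read: 5817 of 13356 genes had no ratio.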
